A study of Rattus norvegicus with 5 samples.

Results

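The genes described here encode proteins of the synaptic vesicle and of neurotransmitter release: 42 listed genes, of which 40 had at least 1 probe set with exactly 1 gene symbol, 56 probe sets among the 8799 on the array. The members were chosen by name, with earlier results of these data known, so their counts beside all genes are descriptions. Napb and Pclo had no such probe set. The brightest probe set of 8 further genes lay under the filter on dim signals, which left 32 genes and 46 probe sets in the tests, beside 3174 genes and 5244 probe sets in all. Transcripts were measured in total RNA from rat hippocampus labelled P5, on 5 single-colour arrays. By their titles 2 arrays are control diet, 2 are fetal alcohol and 1 is isocaloric diet, the diet that matches the calories of an alcohol diet without the alcohol. The labels give no strain, sex, dose or timing of alcohol, and do not say whether a sample was 1 animal or a pool. The p-values therefore measure only the spread between these arrays, which may be technical.

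A synaptic vesicle is filled with transmitter by a vesicular transporter, held in clusters by synapsins, brought to the active zone with the help of Rab3 GTPases and the scaffold proteins there, and primed by Munc13 proteins. The vesicle SNARE synaptobrevin then zips together with syntaxin 1 and SNAP-25 on the plasma membrane. Synaptotagmin senses calcium and complexin holds and releases the complex, so that fusion follows the action potential. NSF and SNAP proteins take the spent complex apart, and clathrin adaptors, dynamin and synaptojanin recover the membrane. In the rodent hippocampus most of this machinery increases after birth, while synapses form.

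The arrays had nearly equal overall signal. The 2% trimmed mean ran from 150.19 to 150.22, and the median intensity from 49.0 to 55.7. For beta-actin the signal at the 3' end over that at the 5' end, a sign of RNA integrity, was 1.33 and 1.34 under control diet, 1.18 and 1.26 after fetal alcohol, and 1.12 for the isocaloric sample. For Gapdh it was 0.878 and 0.895, 0.984 and 0.877, and 0.931. The markers of neurons were present: all 16 measured genes of the pan-neuronal list passed the filter. Slc17a7, the vesicular glutamate transporter VGLUT1, was dim at its only probe set. It measured between 3.15 and 5.72 on the 5 arrays, each under 10.6, the offset added to every intensity before log2. Whether that probe set detects its transcript was not tested, so the value says nothing on how many excitatory neurons were present. In such tissue samples fewer cells of a type and less RNA per cell cannot be told apart.

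Summed over the members, signal was lowest on the isocaloric array and highest under control diet, with fetal alcohol between. The summed intensity of all 40 genes, each at its brightest probe set, was 14148 and 13021 under control diet, 11419 and 11795 after fetal alcohol, and 10265 for the isocaloric sample. The 3 groups did not overlap in this sum, in which bright genes such as Vamp2 weigh most. Among the roles, only the SNARE and complexin genes and the Rab3 genes kept the 3 groups apart in their sums. The SNARE and complexin sum was 5342 and 4831 under control diet, 4361 and 3982 after fetal alcohol and 3699.5 for the isocaloric sample. Vamp2 alone gave 3168 and 2418, 1919 and 1463, and 1536 of it. Of these 8 genes, 4 were positive in both comparisons with control diet, so their sum does not describe the role as a whole. The vesicle membrane genes, whose groups overlapped, summed to 3078 and 2765 under control diet, to 2504.5 and 2902 after fetal alcohol and to 2601 for the isocaloric sample. The pan-neuronal list summed to 23330 and 20964, to 20665 and 21095 and to 20732, so there the isocaloric value lay between the fetal alcohol values. The 27 measured postsynaptic genes were, like the members, lowest on the isocaloric array. They summed to 5434 and 5448 under control diet, to 6049 and 5324.5 after fetal alcohol and to 4497 for the isocaloric sample. The median log2 difference of the 32 tested members was -0.25 for isocaloric minus control diet, with negative values in 24, against 0.03 over all 3174 genes, of which 46.3% were negative. For fetal alcohol minus control diet it was -0.15, with 19 negative, against 0.01 and 47.6%. For fetal alcohol minus isocaloric diet it was 0.16, with 10 negative, against -0.01 and 51.3%. The first 2 differences share their control arrays, and the last shares arrays with both.

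No member passed the test in any comparison (limma, adjusted p under 0.05 over all 5244 probe sets), and neither did any other probe set, 0% in each comparison. At an unadjusted p under 0.05 limma gave 294 probe sets (5.61%) for fetal alcohol against control diet, 221 (4.21%) for fetal alcohol against isocaloric diet and 357 (6.81%) for isocaloric against control diet. At an unadjusted p under 0.05, 4 of 32 members measured lower on the isocaloric array than under control diet, beside 4.66% of all genes. For fetal alcohol against control diet 6 of 32 measured lower, beside 3.21% of all genes, and for fetal alcohol against isocaloric diet 2 of 32 measured higher, beside 2.36%. No member had an unadjusted p under 0.05 in the opposite direction, beside 1.17%, 1.51% and 1.54% of all genes. The groups did not overlap in 13 members that were lower and 4 that were higher for fetal alcohol against control diet, beside 16.8% and 17.6% of all genes. For fetal alcohol against isocaloric diet 3 were lower and 15 higher without overlap, beside 29.5% and 30.4%, and for isocaloric against control diet 19 and 7, beside 35% and 40.5%, where a lone array avoids overlap more easily.

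As a description without a test, members were also counted that differed at least 1.5-fold with no overlap between the arrays of the groups. On the isocaloric array 6 of 32 were lower in this way and 0 higher, beside 7.12% and 3.5% of all genes. For fetal alcohol against control diet 5 were lower and 0 higher, beside 3.21% and 1.2%. For fetal alcohol against isocaloric diet 3 were higher and 0 lower, beside 4.28% and 3.47%. The counts moved with single arrays. Without fetal alcohol array 1, 2 members were lower and 3 higher than under control diet, and 5 were higher and 1 lower than on the isocaloric array. Without fetal alcohol array 2 the last counts were 4 and 3, and without control diet array 2 the isocaloric array had 1 member higher than control diet. The 8 genes in these counts are Epn1, Rab3a, Cplx1, Syt11, Vamp2, Syt3, Syn1 and Syngr1.

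**Figure D1:**
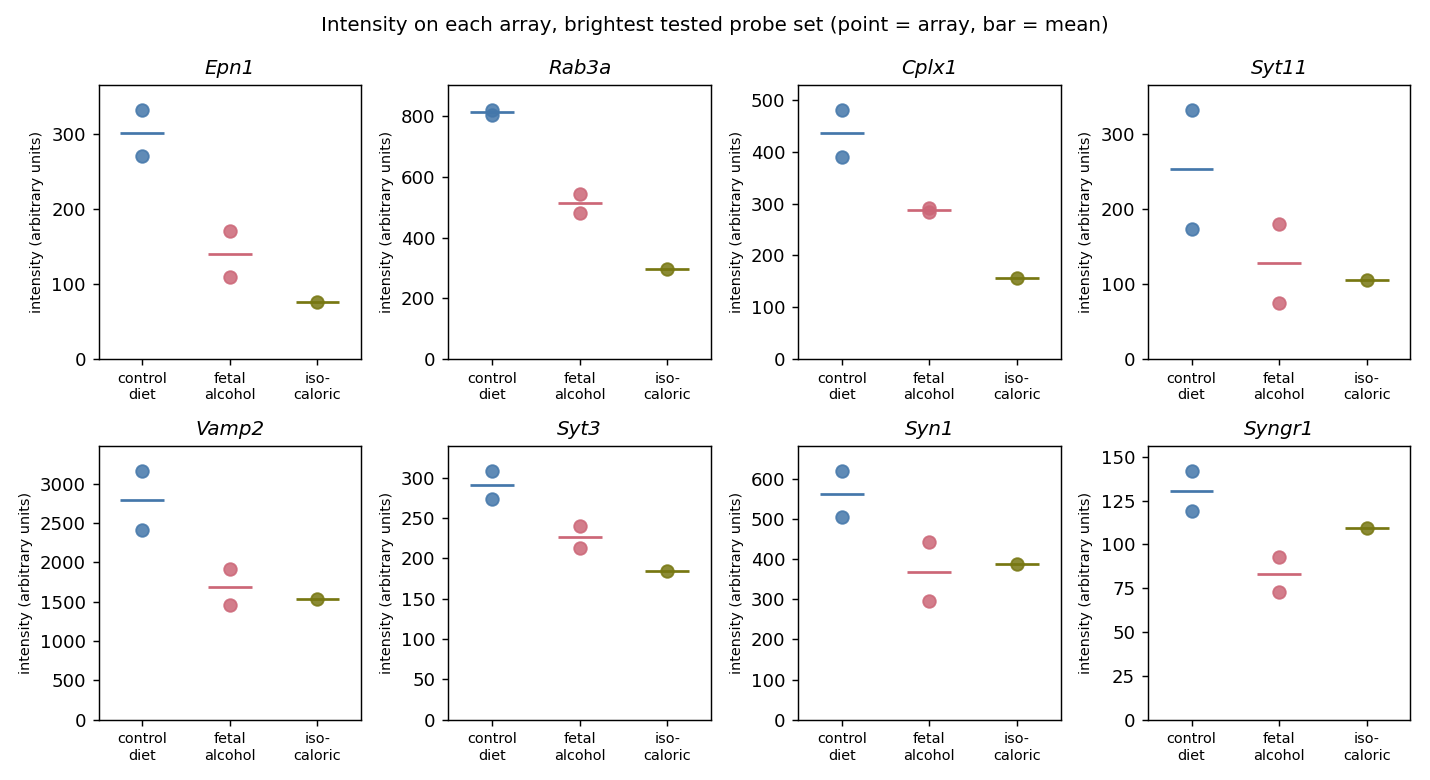
Intensity (arbitrary units, linear axis from 0) of the 8 members at least 1.5-fold apart without overlap in any comparison, at the brightest tested probe set; each point is an array and each bar a group mean. Rab3a is at 820.1 and 804 under control diet, at 481 and 543 after fetal alcohol and at 296 for the isocaloric sample.

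Of the members lower by size on the isocaloric array, 5 also had both fetal alcohol arrays below both control diet arrays: Rab3a, Cplx1, Vamp2, Epn1 and Syt3. The share of all genes with this joint pattern was not counted. Both conditions use the same control diet arrays, so they are not independent. Being lower on these 3 arrays does not set the 5 apart. Syn1, Syngr1, Sv2a, Syt5, Cplx2, Rab3b and Rab3d were too, with isocaloric differences under 1.5-fold. For the 5 genes the 300 bases around the start site are shown, 250 before and 50 after. They are from RefSeq (build GRCr8), 5' to 3' on the gene's strand. Capitals mark the GC box, GGGCGG on either strand (CCGCCC when read on the other), the letters bound by Sp1-type factors.
Rab3a, chr16:18722224-18722523, strand -: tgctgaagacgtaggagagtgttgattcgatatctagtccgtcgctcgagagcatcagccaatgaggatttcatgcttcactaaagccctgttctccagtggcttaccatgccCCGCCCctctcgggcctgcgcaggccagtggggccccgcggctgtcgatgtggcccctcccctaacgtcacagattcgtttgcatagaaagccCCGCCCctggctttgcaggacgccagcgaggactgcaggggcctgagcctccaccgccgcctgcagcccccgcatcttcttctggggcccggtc
Cplx1, chr14:1328823-1329122, strand +: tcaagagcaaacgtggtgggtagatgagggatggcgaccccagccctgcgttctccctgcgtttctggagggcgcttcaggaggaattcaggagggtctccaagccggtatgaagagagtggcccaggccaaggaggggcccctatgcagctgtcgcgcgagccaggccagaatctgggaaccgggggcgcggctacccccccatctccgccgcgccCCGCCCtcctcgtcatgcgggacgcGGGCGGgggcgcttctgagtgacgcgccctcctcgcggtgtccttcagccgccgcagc
Vamp2, chr10:54292539-54292838, strand +: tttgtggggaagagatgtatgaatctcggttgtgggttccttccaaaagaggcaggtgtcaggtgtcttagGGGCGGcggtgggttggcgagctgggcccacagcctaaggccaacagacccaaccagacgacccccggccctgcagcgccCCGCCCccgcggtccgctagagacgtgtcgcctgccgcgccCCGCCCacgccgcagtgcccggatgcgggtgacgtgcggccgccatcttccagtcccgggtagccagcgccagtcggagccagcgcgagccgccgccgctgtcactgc
Epn1, chr1:77789362-77789661, strand -: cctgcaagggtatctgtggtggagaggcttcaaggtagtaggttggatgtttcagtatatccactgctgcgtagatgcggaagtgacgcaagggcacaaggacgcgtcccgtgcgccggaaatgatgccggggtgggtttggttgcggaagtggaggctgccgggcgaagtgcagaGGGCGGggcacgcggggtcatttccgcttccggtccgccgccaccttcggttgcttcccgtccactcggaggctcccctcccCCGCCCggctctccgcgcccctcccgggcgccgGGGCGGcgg
Syt3, chr1:104017874-104018173, strand +: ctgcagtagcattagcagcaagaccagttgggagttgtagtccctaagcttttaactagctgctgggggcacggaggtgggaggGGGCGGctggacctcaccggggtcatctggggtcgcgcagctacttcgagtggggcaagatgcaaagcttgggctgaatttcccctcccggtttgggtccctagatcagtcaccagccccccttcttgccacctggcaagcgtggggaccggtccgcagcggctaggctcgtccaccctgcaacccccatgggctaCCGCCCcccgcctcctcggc
Each of the 5 sequences holds a GC box, 2 in Rab3a, Cplx1 and Syt3 and 3 in Vamp2 and Epn1. The table held a start-site sequence for 34 of the 42 listed genes, and 25 of these, 73.5%, held the motif, beside 43.1% of 19005 protein-coding genes and 34.9% of all 27457 sequences. The members are rich in G and C, with a median of 64.5% against 55.3% for protein-coding genes. A full cyclic AMP response element, TGACGTCA, which reads the same on both strands, was in none of the 5 and in Syn1, Vamp1 and Napa among the members, 8.82% against 2.22% of protein-coding genes. TATAAA was in none of the 34 on either strand, against 13.1%. One side of the REST element, TTCAGCACC, was found on either strand in 1 member, Unc13a, and in 0.41% of protein-coding genes. CACGTG, an E-box that reads the same on both strands, was in Nsf and Napa, 5.88% against 7.27%. The 5 sequences shown hold none of the motifs other than the GC box, so no overlap with another motif arises there. Such matches describe letters in a window, not bound sites.

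Proteins of the vesicle membrane came first by role, with 7 listed genes and 6 tested. Syn1 encodes synapsin I, which tethers vesicles in the reserve pool. It measured 504 and 619.8 under control diet, 296 and 441 after fetal alcohol and 389 for the isocaloric sample. Both fetal alcohol values and the isocaloric value lay below both control diet values, and the isocaloric value lay between the fetal alcohol values. The Syn1 log2 difference from control diet was -0.61 ± 0.27 (SE) for fetal alcohol (1.53-fold lower; limma adjusted p = 0.895) and -0.51 ± 0.33 for the isocaloric array (adjusted p = 0.853). Without fetal alcohol array 1 the first was -0.34. Syngr1 encodes synaptogyrin 1, a tetraspan protein of the vesicle. It measured 119 and 142 under control diet, 72.9 and 92.9 after fetal alcohol and 109 on the isocaloric array. Here the fetal alcohol arrays were the lowest, with a log2 difference of -0.60 ± 0.24 from control diet (limma adjusted p = 0.82), and the isocaloric array lay just under the control diet arrays (-0.23 ± 0.29). The other 2 Syngr1 probe sets were too dim to be tested, at 7.02 to 33.1.

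The remaining vesicle proteins did not meet the size rule. Syp, synaptophysin, measured 1243 and 978 under control diet, 1112 and 862 after fetal alcohol and 861 on the isocaloric array, so the groups with 2 arrays overlapped. Sv2a, a glycoprotein of nearly all vesicles, measured 328 and 319.5, 305.5 and 239.6, and 238, with no overlap between control diet and the other arrays. Its paralogue Sv2b was highest on fetal alcohol array 2, with 646 and 511 under control diet, 498.5 and 932.5 after fetal alcohol and 768 on the isocaloric array; its second probe set had an isocaloric difference of 0.12 ± 0.40 against 0.41 ± 0.39. Syn2, synapsin II, had the smallest isocaloric difference of the role at its brightest probe set, 0.13 ± 0.34. The other Syn2 probe sets gave -0.60 ± 0.34 and 0.06 ± 0.28, so the probe sets of this gene disagree.

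Among the calcium sensors, 6 of 9 were tested. Syt3 and Syt5 had the same order of groups. Syt3 measured 309 and 274 under control diet, 239.8 and 213 after fetal alcohol and 184 on the isocaloric array. The log2 difference was -0.35 ± 0.23 for fetal alcohol (limma adjusted p = 0.961) and -0.63 ± 0.28 for the isocaloric array (adjusted p = 0.74). Syt5, a synaptotagmin of synaptic and dense core vesicles, measured 549.5 and 556, 461 and 424, and 387. For both genes every fetal alcohol array lay below every control diet array and above the isocaloric array.

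Syt11 and Syt4 belong to a branch of synaptotagmins that does not bind calcium through the first C2 domain in the usual way. Syt11 measured 331.5 and 173 under control diet, 74.6 and 179.8 after fetal alcohol and 105 on the isocaloric array. Control diet and fetal alcohol values overlapped and each group was widely spread. Its log2 difference was -0.98 ± 0.42 for fetal alcohol (limma adjusted p = 0.875), between -1.56 and -0.40 when 1 array was left out, and -1.12 ± 0.52 for the isocaloric array (adjusted p = 0.746). Syt4 measured 479 and 405 under control diet, 263 and 606 after fetal alcohol and 432 on the isocaloric array, so the fetal alcohol arrays lay on either side of all others. Its second probe set showed the same, with 284.5 and 285, 179.5 and 426, and 277.5. Syt1, the main calcium sensor for fast release, spread in the same way: 53.6 and 67.9 under control diet, 41.2 and 99.5 after fetal alcohol and 78.5 on the isocaloric array. Doc2a, a high-affinity sensor linked to spontaneous release, measured 109.6 and 147, 146 and 160.4, and 117. Syt2 and Syt7 were under the filter, Syt2 with values under the offset on 4 of 5 arrays. Doc2b, also under the filter, measured 48.2 and 41.4 under control diet, 5.44 and 28.3 after fetal alcohol and 10.6 on the isocaloric array, lower on each array off the control diet.

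All 8 SNARE and complexin genes were tested, and they divided. Vamp2, synaptobrevin 2, the vesicle SNARE of the forebrain, measured 3168 and 2418 under control diet, 1919 and 1463 after fetal alcohol and 1536 on the isocaloric array. Every other array lay below both control diet arrays, and the isocaloric array lay between the fetal alcohol arrays. The Vamp2 log2 difference was -0.72 ± 0.23 for fetal alcohol (1.65-fold lower; limma adjusted p = 0.682) and -0.85 ± 0.28 for the isocaloric array (1.8-fold lower; adjusted p = 0.623). Its second probe set gave -0.72 ± 0.31 and -0.61 ± 0.38, with 1702 and 922 under control diet, 842 and 676 after fetal alcohol and 817 on the isocaloric array.

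Complexin 1 showed one of the widest gaps between the diets. Cplx1 measured 481 and 391 under control diet, 284 and 292 after fetal alcohol and 156 on the isocaloric array. The 3 groups did not overlap, and the fetal alcohol arrays lay close together. The isocaloric log2 difference from control diet was -1.42 ± 0.29 (2.67-fold lower, 95% interval -2.08 to -0.75; limma adjusted p = 0.354). For fetal alcohol it was -0.57 ± 0.24 from control diet (1.49-fold lower; adjusted p = 0.867) and 0.84 ± 0.29 from the isocaloric array (1.79-fold higher; adjusted p = 0.998). Cplx2, its close relative, kept the order of groups with smaller gaps: 169.6 and 168 under control diet, 126 and 154 after fetal alcohol and 111 on the isocaloric array.

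The partners of synaptobrevin on the plasma membrane did not share this order at their brightest probe sets. Stx1a, syntaxin 1A, measured 1081 and 1346 under control diet, 1524 and 1484 after fetal alcohol and 1373 on the isocaloric array. A second Stx1a probe set was 634.6 and 613.5, 656 and 577, and 376, lower on the isocaloric array alone, with a log2 difference of -0.71 ± 0.27 (limma adjusted p = 0.641) against 0.19 ± 0.26 at the brightest. Snap25 measured 138 and 212 under control diet, 142 and 262 after fetal alcohol and 167 on the isocaloric array. The higher array of each pair was array 2, and the groups overlapped. A dimmer Snap25 probe set read 40.4 and 93.9, 29.6 and 103.5, and 22.45, an isocaloric difference of -1.14 ± 0.62, while the other Snap25 probe sets gave -0.37 ± 0.42, -0.11 ± 0.49 and, at the brightest, -0.04 ± 0.41. The more widely expressed SNAREs Stx4 and Vamp3 were slightly higher off the control diet, Stx4 at 34.5 and 28.0, 43.1 and 37.6, and 40.75, and Vamp3 at 216 and 209, 269.9 and 242, and 237. Vamp1, synaptobrevin 1, gave 54.3 and 58.8, 53.1 and 48.4, and 80.35 at its brightest probe set. Its second measured 60.7 and 68.0, 26.9 and 39.2, and 72.6, a fetal alcohol difference of -0.79 ± 0.25 (limma adjusted p = 0.682) that the brightest (-0.13 ± 0.23) did not show.

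Of the proteins that disassemble SNARE complexes, Napa, alpha-SNAP, measured 559.5 and 516 under control diet, 554 and 444 after fetal alcohol and 504 on the isocaloric array, an isocaloric difference of -0.09 ± 0.29 (-0.20 ± 0.28 at its second probe set). Nsf, the ATPase it recruits, measured 104 and 107, 107 and 129.8, and 85.1, an isocaloric difference of -0.28 ± 0.28. The second Nsf probe set was 57.2 and 82.6, 92.8 and 142, and 93.6, higher on each array off the control diet.

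**Figure D2:**
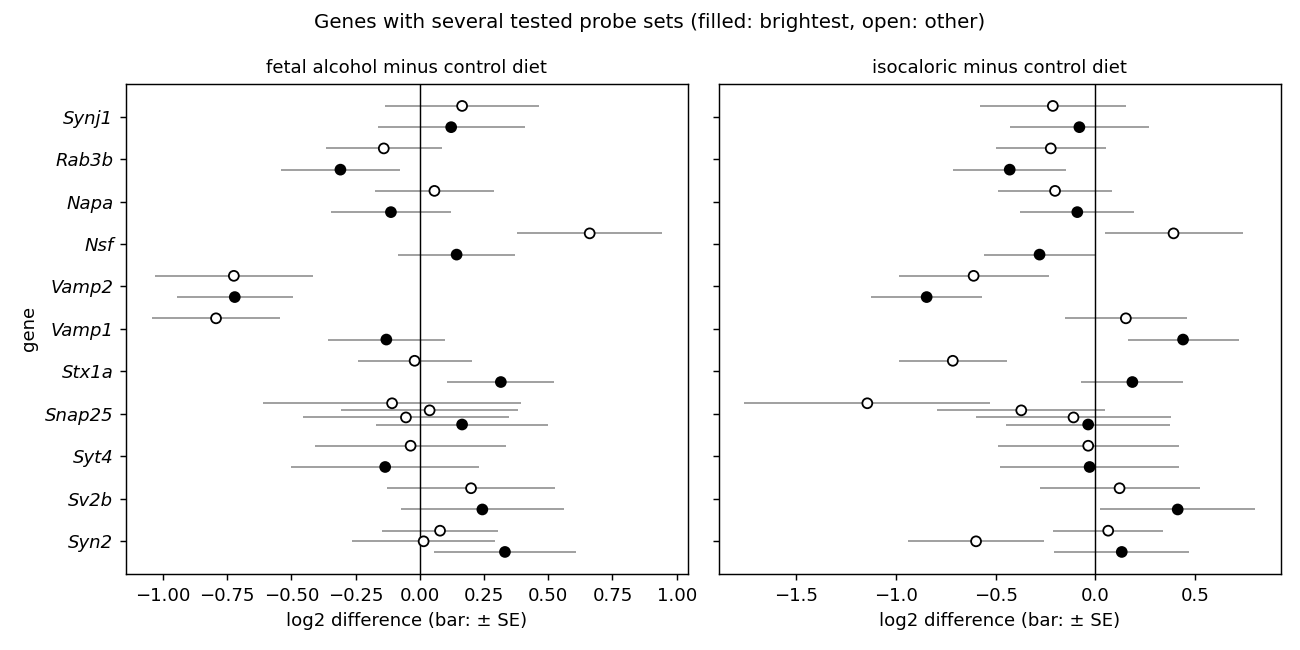
Fitted log2 differences (horizontal axis, bars ± SE) for the 11 members with several tested probe sets; filled points mark the brightest and open points the others. Vamp2 gave -0.72 at both probe sets for fetal alcohol, while the 4 Snap25 probe sets ran from -1.14 to -0.04 for the isocaloric array.

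The 3 tested Rab3 members, Rab3a, Rab3b and Rab3d, measured lower on every array off the control diet, while Rab3c, from the wider presynaptic list, did not. Rab3c, named after its values were seen, measured 56.9 and 57.7 under control diet, 68.5 and 64.3 after fetal alcohol and 53.9 on the isocaloric array, so both fetal alcohol arrays lay above control diet (0.18 ± 0.22 on the log2 scale). Its second probe set differed by -0.0068 for fetal alcohol and 0.52 for the isocaloric array. Rab3a, the main Rab3 of hippocampal terminals, where it takes part in mossy fibre plasticity, measured 820.1 and 804 under control diet, 481 and 543 after fetal alcohol and 296 on the isocaloric array. Values under control diet were nearly equal and the 3 groups did not overlap. The isocaloric log2 difference was -1.42 ± 0.27 (2.68-fold lower, 95% interval -2.04 to -0.80; limma adjusted p = 0.342). The fetal alcohol difference was -0.66 ± 0.22 from control diet (1.58-fold lower; adjusted p = 0.725) and 0.77 ± 0.27 from the isocaloric array (1.7-fold higher; adjusted p = 0.998). Rab3b measured 359.9 and 426, 319 and 309.8, and 288, and Rab3d 83.4 and 94.1, 62.9 and 80.1, and 76.1. The Rab3a isocaloric difference was thus the largest of these 3 members, with -0.43 ± 0.28 for Rab3b (-0.22 ± 0.28 at its second probe set) and -0.19 ± 0.29 for Rab3d. The Rab3 effector Rph3a, rabphilin, was under the filter at 60.4 and 29.5, 12.1 and 23.1, and 27.1, also lower off the control diet.

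The active zone was thinly measured, with 2 of 6 genes tested. Rims1, a scaffold that binds Rab3 and calcium channels, measured 92.1 and 50.2 under control diet, 42.1 and 52.7 after fetal alcohol and 45.1 on the isocaloric array. Control diet array 1 stood alone, and the isocaloric difference of -0.51 ± 0.37 became -0.13 without it. Unc13a, the priming factor Munc13-1, measured 69.0 and 45.75, 34.55 and 64.8, and 39.2, with overlap between control diet and fetal alcohol. Unc13b and Unc13c were under the filter, at 6.85 to 25.3 and at 20.2 to 29.1. Bsn, the scaffold bassoon, measured 19.3 and 16.4 under control diet and 6.07, 9.795 and 6.79 on the other arrays, the last 3 under the offset.

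The endocytic genes held the member with the largest isocaloric difference, Epn1, epsin 1, a clathrin adaptor that bends membrane. It measured 332 and 270.1 under control diet, 170.1 and 109 after fetal alcohol and 76.4 on the isocaloric array, with no overlap between the 3 groups. The log2 difference was -1.83 ± 0.34 for the isocaloric array (3.56-fold lower, 95% interval -2.61 to -1.06; limma adjusted p = 0.342) and -1.08 ± 0.28 for fetal alcohol (2.11-fold lower; adjusted p = 0.573). Fetal alcohol exceeded the isocaloric array by 0.75 ± 0.34 (1.69-fold; adjusted p = 0.998). The other endocytic genes did not follow. Dnm1, dynamin 1, which cuts the vesicle from the membrane, measured 756 and 838, 997 and 704, and 620.1. Synj1, synaptojanin 1, a lipid phosphatase that sheds the clathrin coat, measured 294.5 and 259.7, 235 and 387, and 261, the smallest isocaloric difference of the role (-0.08 ± 0.35, and -0.21 ± 0.37 at its second probe set). Amph, amphiphysin, measured 71.4 and 109.8, 86.0 and 108, and 128, and Snap91, the clathrin assembly protein AP180, 161 and 127, 164 and 167, and 129.6.

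The isocaloric adjusted p of Epn1, 0.342, was 0.0326 without fetal alcohol array 1 and 0.0379 without fetal alcohol array 2. With either left out, only the pair of control diet arrays is left to estimate the spread. For Rab3a it was 0.0429 without fetal alcohol array 1. Over all alternatives these p-values reached 1. The value of the isocaloric group rests on 1 array, with no replicate check, and it was assumed to vary like the others.

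**Figure D3:**
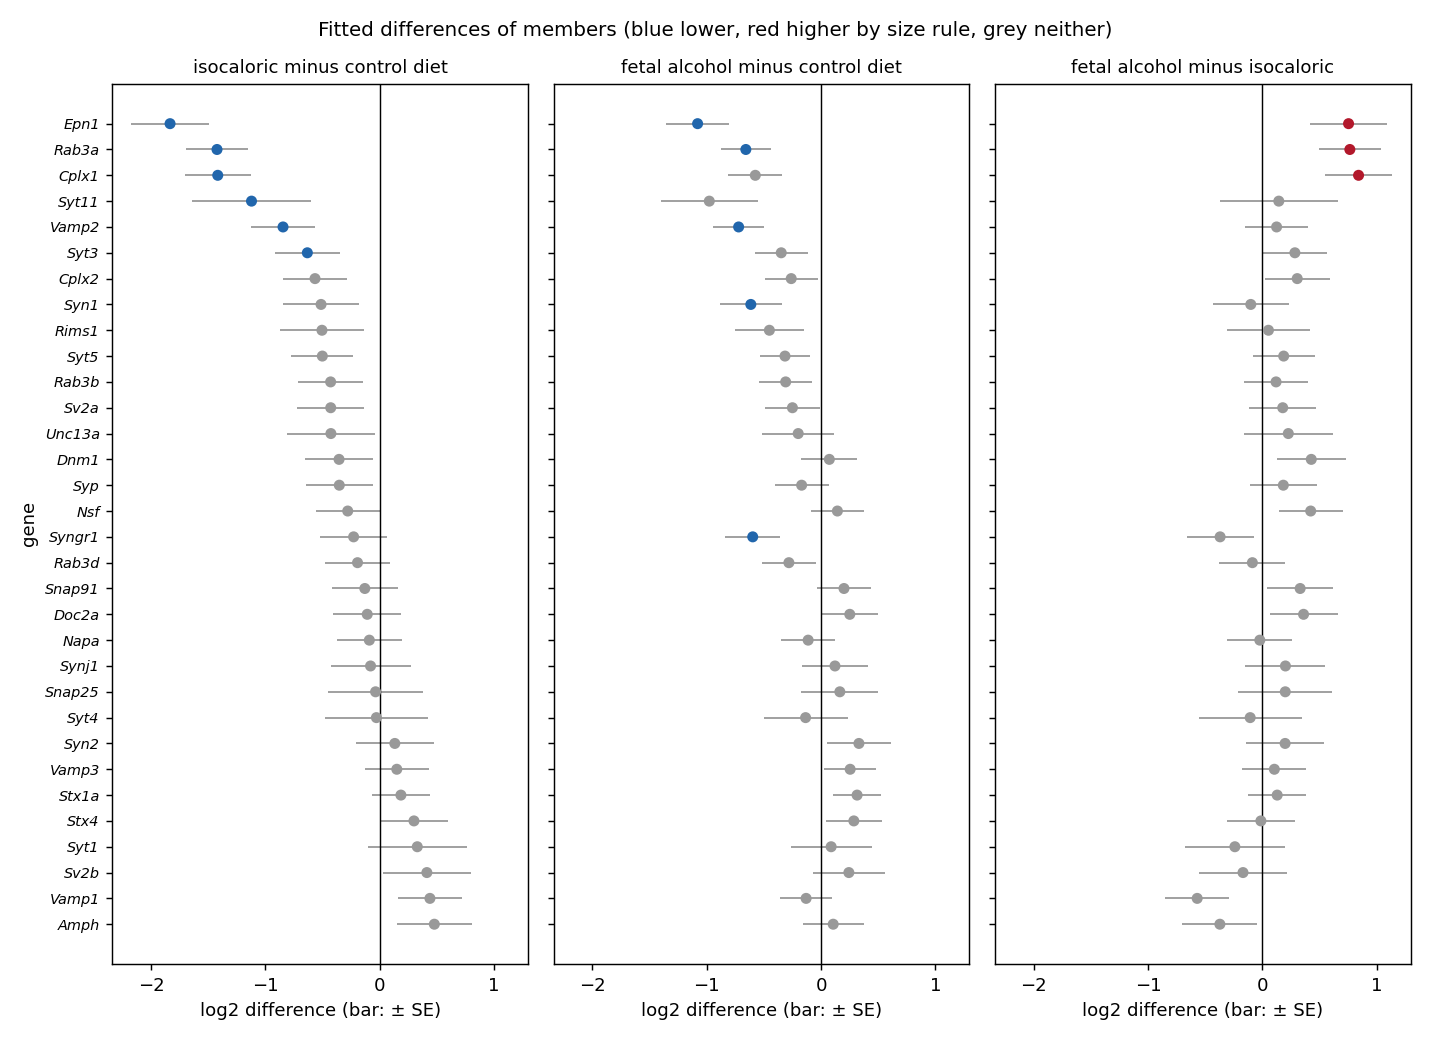
Fitted log2 differences (horizontal axes, bars ± SE) of the 32 tested members in the 3 comparisons, ordered by the isocaloric minus control diet difference; blue and red mark members at least 1.5-fold lower or higher without overlap. The isocaloric differences run from -1.83 for Epn1 to 0.48 for Amph.

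By role, then, the isocaloric medians were -0.29 for vesicle membrane proteins, -0.31 for calcium sensors, 0.06 for SNAREs and complexins and -0.43 for the 3 Rab3 members. The endocytic genes had -0.13, SNARE disassembly -0.19 over 2 genes and the active zone -0.47 over 2 genes. Fetal alcohol minus control diet gave medians of -0.21, -0.22, 0.02, -0.31, 0.11, 0.02 and -0.33 in the same order of roles. Within the SNARE and complexin genes 4 were negative and 4 positive in both comparisons with control diet, so this role was the most divided.

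**Figure D4:**
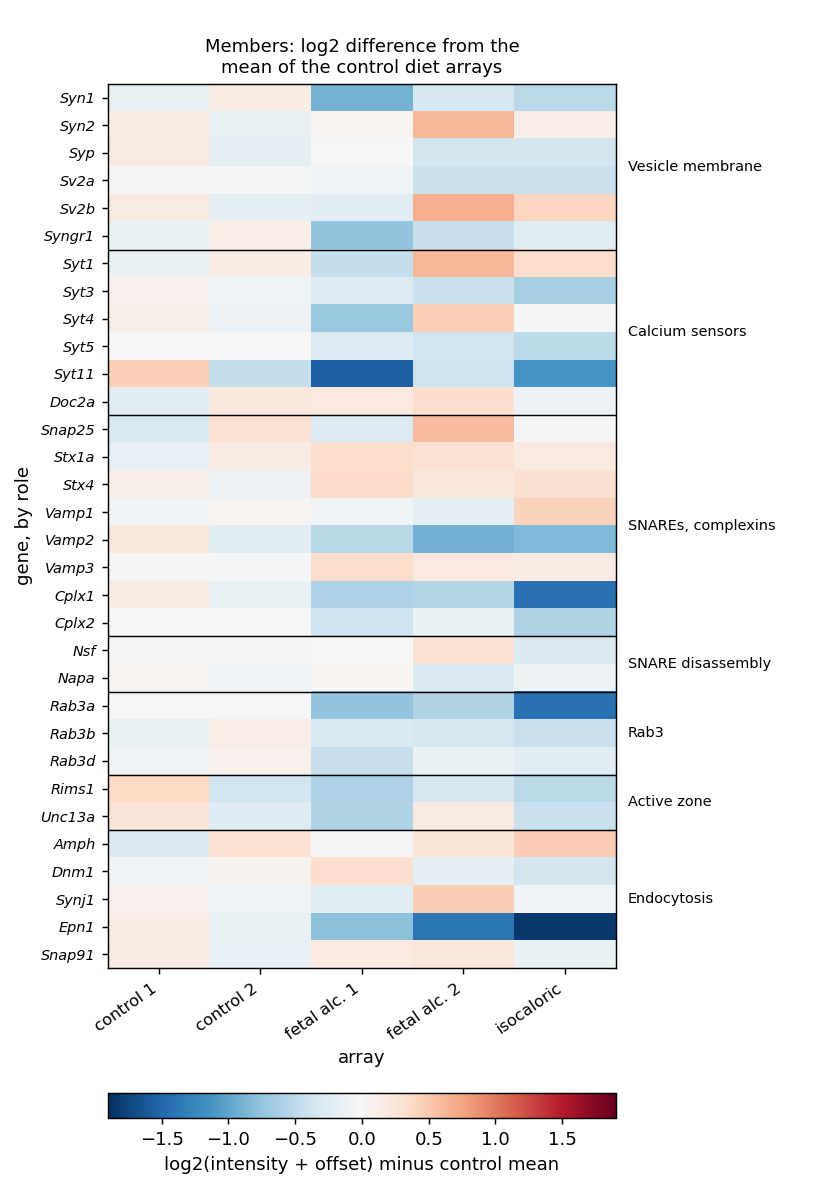
Log2(intensity + offset) of the 32 tested members (rows, by role) on the 5 arrays (columns), minus the mean of the control diet arrays; blue is lower and red higher. Epn1, Rab3a, Cplx1 and Vamp2 are blue on the 3 arrays off the control diet, while Sv2b, Syt1, Syt4, Snap25 and Synj1 are red on fetal alcohol array 2.

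The fetal alcohol arrays differed from each other in a subset of members. Array 2 exceeded array 1 at least 1.5-fold in 8 of 32 members, Syt4, Syt11, Syt1, Sv2b, Snap25, Unc13a, Synj1 and Syn2, and array 1 exceeded array 2 in 1, Epn1. That is 28.1% of members, against 19.2% of all genes (436 and 173 in the same directions, of 3174). The widest gap was that of Syt4, with 1.17 on the log2 scale. The control diet arrays differed this far in 3 members, Snap25, Rims1 and Syt11, 9.38% against 6.52% of all genes. The SD of the log2 difference between the arrays of a group was 0.49 for fetal alcohol and 0.34 for control diet, over members, and 0.49 and 0.33 over all genes. Among these 9 genes, Syt11 and Epn1 also appear in the counts by size. Of the other genes in those counts, Rab3a, Cplx1 and Syt3 had fetal alcohol gaps of 0.17, 0.04 and -0.16. Syn1, Vamp2 and Syngr1 had wider ones of 0.56, -0.39 and 0.31.

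**Figure D5:**
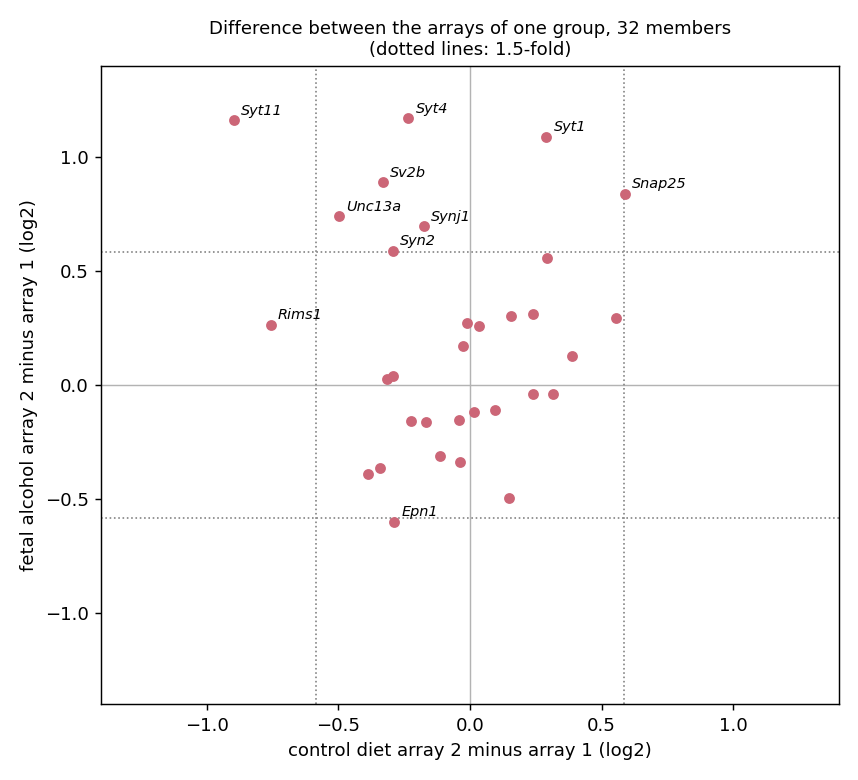
Log2 difference between the arrays of the control diet group (horizontal axis) and of the fetal alcohol group (vertical axis), array 2 minus array 1, for the 32 tested members; dotted lines mark 1.5-fold. The 8 members above the upper line are brighter on fetal alcohol array 2, and Epn1 lies below the lower line.

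A wider list, called other presynaptic genes here, had medians near that of all genes. It mixes genes of nerve terminals with genes of vesicle traffic in cells at large, such as endosomal syntaxins and clathrin. Its medians therefore do not describe presynaptic genes alone. Of 98 listed genes, 58 were measured and 45 tested, among them further syntaxins, clathrin and its adaptors, beta-synuclein and subunits of the proton pump that energises the vesicle. Their median was -0.01 for isocaloric minus control diet, with 23 negative, -0.01 for fetal alcohol minus control diet, with 24 negative, and 0.04 for fetal alcohol minus isocaloric diet. None passed the test in any comparison, and the difference between these genes and the members was not tested. On the isocaloric array 2 were lower by size and 1 higher. Vamp5 measured 74.6 and 80.8 under control diet, 61.3 and 49.4 after fetal alcohol and 43.1 on the isocaloric array (-0.72 ± 0.29, limma adjusted p = 0.681). Svop, a transporter-like vesicle protein, had -0.60 ± 0.31, and Stx12, an endosomal syntaxin, 0.66 ± 0.34 (0.88 at its second probe set). Clathrin heavy chain, Cltc, had 0.55 ± 0.35. After fetal alcohol Cadps, the dense core vesicle priming protein CAPS1, was the 1 gene past the size rule. It measured 366 and 284 under control diet, 527 and 529 after fetal alcohol and 347 on the isocaloric array. The log2 difference was 0.69 ± 0.24 from control diet (limma adjusted p = 0.748) and 0.59 ± 0.29 from the isocaloric array. Next by p from control diet were the pump subunits Atp6v1c1 (0.45 ± 0.23) and Atp6v1a (0.41 ± 0.23, with -0.041 and 0.074 at its other probe sets), and Vamp5 (-0.43 ± 0.23). From the isocaloric array they were Stx6 (-0.42 ± 0.27), Sv2c (0.39 ± 0.30) and Svop (0.40 ± 0.31).

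Markers of other cells and of the other side of the synapse moved as follows beside the members. Postsynaptic genes, with 18 of 31 tested, had an isocaloric median of -0.32 with 14 negative, and the 16 pan-neuronal genes one of -0.12 with 11 negative. Fetal alcohol minus control diet gave -0.06 and -0.05. The astrocyte list, with 14 of 16 tested, had 0.03 and 0.03, and the summed intensity of its 15 measured genes, tested or not, ran from 12353 to 12842 under control diet, from 10658 to 12916 after fetal alcohol and was 13106 on the isocaloric array. Oligodendrocyte genes (7 of 15 tested) had -0.21 on the isocaloric array and -0.01 after fetal alcohol. The sums of the 10 measured genes were 834 and 833, 918 and 784, and 730.4. Microglial genes (7 of 14) had -0.16 and -0.18, vascular genes (7 of 14) -0.27 and -0.13, and blood genes (4 of 8) -0.20 and -0.17. Choroid plexus genes (6 of 13 tested) had 0.28 on the isocaloric array and -1.07 after fetal alcohol, with 5 of 6 negative after fetal alcohol. The 7 measured ones summed to 5771.5 and 5422 under control diet, to 1257 and 353 after fetal alcohol and to 6170.1 on the isocaloric array. Choroid plexus signal was thus lowest after fetal alcohol, while the members' summed signal was lowest on the isocaloric array. Meningeal genes (13 of 16 tested) had -0.25 on the isocaloric array, with 11 negative, and -0.43 after fetal alcohol, with all 13 negative, beside -0.25 and -0.15 for the members. The 14 measured ones summed to 7373 and 7828, 6272 and 4936, and 5763.5. The part of these tissues and of the actin ratio in the members' differences was not tested.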

How the data were processed

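Each of the 5 samples was hybridised to 1 single-colour oligonucleotide array. The deposited file holds intensities on a linear scale, made by the authors with software and a scaling not given in the sources used here. Array means, trimmed, differed by a ratio of 1.0002, under the limit of 1.1 set for rescaling, so no further scaling was applied. After removal of 59 control probe sets, 8740 were taken as log2(intensity + 10.6), the offset being the 20th percentile, which shrinks differences of dim probe sets. Those with a mean under the 40th percentile were not tested. No scan date was used, so no batch was tested, and the number of arrays limits the precision.

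Gene names came from the platform annotation, updated through the gene identifier for 6985 probe sets: 7006 had 1 symbol, 308 several and 1426 none, and only the 7006 were named. A gene stands by its brightest tested probe set. One limma fit (version 3.58.1, R 4.3.3; lmFit, then eBayes with an intensity trend; 2 residual and 6.30 prior degrees of freedom) gave all 3 comparisons, 2-sided, with Benjamini-Hochberg adjustment over all tested probe sets. It was first tested on simulated data. The members and lists were chosen with earlier results of these data known. Named are members at least 1.5-fold apart without overlap in any comparison, and the 4 other presynaptic genes with the smallest p in each comparison; values of the remaining members are given beyond that rule. Alternatives were other normalizations, offsets, filters and variance models, the mean of a gene's probe sets, each array left out, and the replicate number as a block. The numbers were not taken as pairs: the labels name no shared source.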

Additional observations from a re-analysis of the deposited data

How the results depend on the processing

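None of the 14 pairs of a member and a comparison that met the size rule changed sign under any alternative, while 32 of the other 82 did. The rule asks for a wide gap without overlap, so leaving out an array can hardly change the sign of such a pair. This contrast therefore follows largely from the rule and is no check of the differences. Except without a fetal alcohol array, the count of members past the adjusted threshold stayed at 0. The exception is the isocaloric comparison with control diet, given above for Epn1 and Rab3a. The cause of the shifts below was not tested, beyond fewer genes or arrays entering.

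Fetal alcohol against control diet: the probe sets called, 0 at first, were 1 with quantile normalization, 9 with equal medians, 1 with the offset at the 40th percentile and 0 to 22 with 1 array left out. Same-numbered arrays deviated from their group means with a correlation of -0.113 over the tested probe sets. With 2 arrays per group this cannot show whether same-numbered arrays share a source. The replicate block, fitted without the isocaloric array, gave 6, and the crossed pairing, added after seeing the data, 20, with 0 members called in either. The comparisons with the isocaloric array were not fitted with a block. Members lower by size, 5 at first, were 3 with equal medians, 3 with the offset at the 40th percentile, 8 of 40 with no filter and 2 to 7 with 1 array left out; those higher were 0 to 3. The member median was -0.26 to -0.10 with 1 array left out.

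Fetal alcohol against isocaloric diet: 3 probe sets were called with quantile normalization, 3 with equal medians and 0 to 22 with 1 array left out. Members higher by size were 3 to 5 with 1 array left out and those lower 0 to 3; 1 was lower with the offset at the 10th percentile, 1 with no filter and 1 with the mean of all probe sets. Negative members, 10 at first, were 6 of 26 under the 60th percentile filter and 6 to 14 with 1 array left out. With 1 array left out Vamp2 ran from -0.069 to 0.32, Syn1 from -0.38 to 0.18 and Syt11 from -0.44 to 0.72.

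Isocaloric against control diet: 0 to 14 probe sets were called and 0 to 1 members higher by size with 1 array left out. The member median was -0.32 with the filter at the 60th percentile. Equal medians gave 0.032 for Syt4 and 0.022 for Snap25, and the mean of all probe sets -0.13 for Syn2 and 0.056 for Nsf. With 1 array left out Syt4 ran from -0.15 to 0.088, Synj1 from -0.17 to 0.0071, Syn2 from -0.015 to 0.28 and Snap25 from -0.33 to 0.26. In these fits a lone array was assumed to vary like the other groups.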
